A study of Saccharomyces cerevisiae with 3 samples.

Results

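Glycolysis turns glucose into pyruvate, and in budding yeast its enzymes are among the most abundant proteins of the cell. Their genes are transcribed by RNA polymerase II (Pol II) at very high rates during growth on glucose, under the activators Rap1 and Gcr1. They stand here for strongly transcribed Pol II genes in a survey of Maf1, the repressor of RNA polymerase III (Pol III), which makes tRNAs, the 5S ribosomal RNA and a few other small RNAs. Rapamycin inhibits the growth-controlling TOR kinase, and Maf1 is known to be dephosphorylated and to repress Pol III when TOR is inhibited.

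The 10 genes were listed by systematic name: TDH3 (YGR192C), TDH2 (YJR009C), PGK1 (YCR012W), ENO1 (YGR254W), ENO2 (YHR174W), CDC19 (YAL038W), FBA1 (YKL060C), TPI1 (YDR050C), PGI1 (YBR196C) and GPM1 (YKL152C). The array table holds 10 features named for 9 of them, of 6399 features in all, and 5806 features are named for open reading frames (ORFs). TDH2 has 2 features, and PGK1 has no feature of its name in the table. The TPI1 feature is listed without a value in every column, which leaves 9 features of 8 genes with 3 values each.

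Saccharomyces cerevisiae cells with myc-tagged Maf1 were grown in YPD medium to an OD600 of 0.6 in all 3 conditions. One condition was untreated, and the others received rapamycin, at a dose of 0.2 ng/ul, for 30 min or for 120 min. Chromatin depleted of Maf1-myc with antibodies was labelled with Cy5 and its input with Cy3, and both were hybridized together to arrays of intergenic DNA. Each condition has 1 column, the authors' mean of 3 replicates, so the spread between replicates is unknown, the differences described here could not be checked against it, and no test was made. The strain background is not stated in the labels.

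Values are scores, that is deposited values minus the median of their column, in score units. The log base and the direction of the ratio are not stated, so a high score is not read as more or less Maf1, and with the sign turned every high value becomes a low one. A score or a difference is called high or low here when it lies more than 1 robust SD (the scaled median absolute deviation over all features) from the median of all features. That robust SD was 0.388 without rapamycin, 0.442 at 30 min and 0.512 at 120 min. It was 0.331 for 30 min minus untreated, 0.440 for 120 min minus untreated and 0.427 for 120 min minus 30 min.

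Because a feature lies beside its ORF and not in it, the side matters for which end of the gene was measured. ORF-named features with a Pol III gene as the adjacent gene at higher coordinates had medians of 0.53 without rapamycin, 0.45 at 30 min and 1.22 at 120 min (185 features). Those with the Pol III gene at lower coordinates had medians of -0.05, -0.04 and 0.02 (172 features). In both classes at least 3 genes separate the ORF from a Pol III gene on the other side. Features that carry an ORF's name thus behaved, as a class, like the stretch at its higher-coordinate end. Read this way, the features of the 6 genes on the Crick strand (TDH3, TDH2, FBA1, TPI1, PGI1 and GPM1) lie upstream of the gene, where its promoter is. Those of the 4 genes on the Watson strand (PGK1, ENO1, ENO2 and CDC19) would lie downstream, beyond the end of the coding sequence. This is a reading of class medians, and the position of no single feature is known.

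The glycolytic features as a group stayed near the middle of the array and did not show the high scores of tRNA-named features. Their median was -0.24 without rapamycin, -0.17 at 30 min and -0.37 at 120 min, where ORF-named features had -0.03, -0.03 and -0.04 and the 245 measured tRNA-named features had 0.76, 0.62 and 1.46. Without TDH2 the medians of the other 7 features were -0.067 in untreated cells and 0.12 at 30 min. TDH2 has 2 of the 9 features, and with 1 value per ORF these medians were -0.19 and -0.08. The 30 min median was -0.03 when PGI1, ENO2 or FBA1 alone was left out. It was -0.28 when CDC19, TDH3, ENO1 or GPM1 alone was left out. The group level in these columns thus depends on which features are counted. None of the 9 lay above the tRNA-named median in any column. In untreated cells 3 of the 9 features were above 0 and 6 below, where 50% of all features lie on each side. The 30 min column had 4 above and 5 below, and the 120 min column had 1 above with 8 below, again against 50%. ENO1 was the single feature above 0 after 120 min, and the other 8 then ranged from -0.80 to -0.06. TDH3, at -0.06, lay above 0 with each chromosome centred separately (0.038) and with centring on ORFs away from Pol III genes (0.009).

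Few of the scores were far from the middle. In untreated cells 1 of 9 was high, where 15.3% of all features were, and 2 of 9 were low, where 17.3% were. After 30 min 1 was high (background 14.9%) and 2 were low (background 16.6%). After 120 min 1 was high (background 17.5%) and 1 was low (background 15.7%). With 9 features, shares of 1 or 2 in 9 do not stand apart from these backgrounds. The range from the 5th to the 95th percentile of ORF-named features held all 9 scores in untreated cells and 8 of 9 in each rapamycin column, and the exception both times was ENO1.

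**Figure D1:**
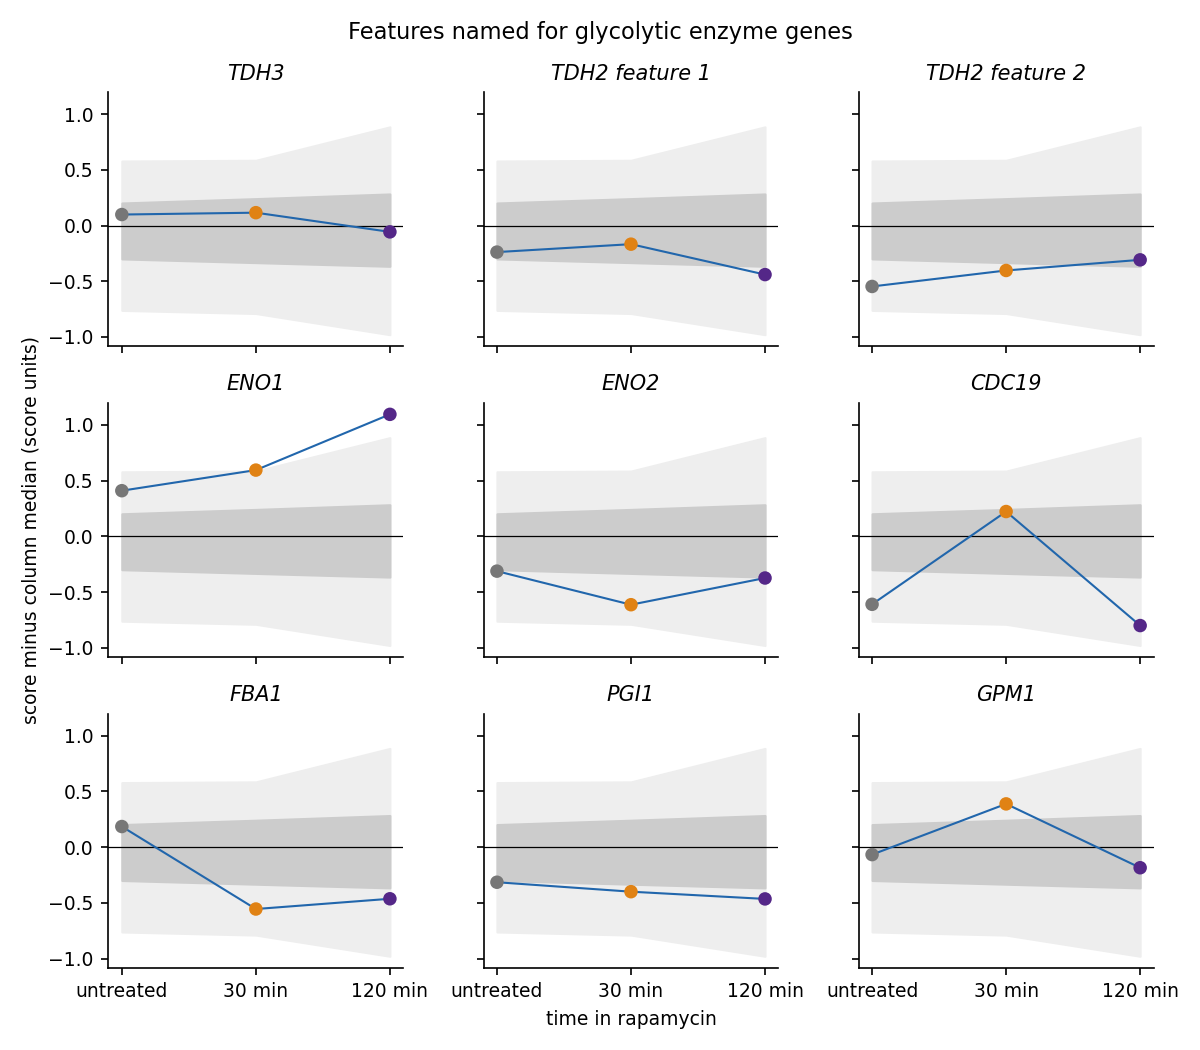
Each panel plots the score of 1 feature (score minus column median, in score units) in untreated cells and after 30 and 120 min in rapamycin. The dark band spans the quartiles and the light band the 5th to 95th percentile of ORF-named features. ENO1 lies just above the light band at 30 min and ends above it at 1.10. CDC19, GPM1, TDH3 and the first TDH2 feature are highest at 30 min.

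Of the listed members in the upper part of the pathway 2 genes had values, and they did not follow 1 course. PGI1 encodes glucose-6-phosphate isomerase, which converts glucose 6-phosphate to fructose 6-phosphate. Its feature stood at -0.31 without rapamycin, -0.40 at 30 min and -0.46 at 120 min. These values had the narrowest span of the group, 0.15, and the differences from untreated cells were -0.08 at 30 min and -0.15 at 120 min.

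FBA1 encodes fructose-bisphosphate aldolase, which splits the hexose into triose phosphates. Its feature stood at 0.19 without rapamycin, -0.56 at 30 min and -0.46 at 120 min. The score was thus above the column median only in untreated cells, and low after 30 min. Its difference was -0.74 for 30 min minus untreated, the lowest of the group and at percentile 4.32 of ORF-named features, and -0.65 for 120 min minus untreated. Both differences use the same untreated column and are not independent.

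TPI1, for triose-phosphate isomerase, which interconverts the products of aldolase, has no value of its own. On its lower-coordinate side the feature named for the neighbour VMS1 stood at -0.41, -1.05 and -0.65 in the untreated, 30 min and 120 min columns. If names go with the higher-coordinate side, that stretch lies downstream of TPI1, and its score at 30 min was below that of all 9 glycolytic features.

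TDH3 and TDH2 encode near-identical forms of glyceraldehyde-3-phosphate dehydrogenase, the enzyme that yields the first NADH of the pathway, and TDH3 is the more strongly expressed. The TDH3 feature stood at 0.10 without rapamycin, 0.12 at 30 min and -0.06 at 120 min. All 3 values lie near the column medians and span 0.17. The TDH3 promoter is one of the strongest of yeast. The 2 features of TDH2, in the order of their numbers in the table, stood at -0.24, -0.17 and -0.44 and at -0.55, -0.40 and -0.31 in the same order of conditions.

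The TDH2 features therefore lay below TDH3 in every column, but their differences between 120 min and untreated cells had opposite signs. The difference for 120 min minus untreated was -0.20 at the first and 0.24 at the second, a gap of 0.44. Among the 172 ORFs with exactly 2 measured features the median gap for this difference was 0.49, so such a gap within 1 ORF was ordinary on this array. The corresponding median gap in untreated scores was 0.34, and that of TDH2 was 0.31. Differences of this size between neighbouring genes in the order of levels are hence no larger than those between 2 features of the same ORF.

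PGK1, for phosphoglycerate kinase, the first ATP-yielding enzyme of the pathway, is represented only by a neighbour. The feature of ADP1, the next gene at lower coordinates, stood at -0.11 without rapamycin, 0.05 at 30 min and 0.42 at 120 min. On the reading of sides given above, it covers the stretch upstream of PGK1. Its difference of 0.52 for 120 min minus untreated ran opposite to the median of the 9 glycolytic features.

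GPM1 encodes phosphoglycerate mutase, and its feature stood at -0.07 without rapamycin, 0.39 at 30 min and -0.18 at 120 min. It was highest at 30 min, with a difference of 0.46 for 30 min minus untreated and of -0.57 for 120 min minus 30 min. Its next gene at lower coordinates is a tRNA gene, which makes GPM1 the single member with a Pol III gene beside it. The feature of YKL154W, on the far side of that tRNA gene, stood at 1.31, 1.11 and 2.19. It was high in every column, and the GPM1 feature was high in none. High scores were not confined to that side. The feature of NNR2, the next gene at higher coordinates from GPM1, stood at -0.13, 0.48 and 0.73 and was high in both rapamycin columns.

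ENO1 and ENO2 encode the 2 enolases, which make phosphoenolpyruvate, and ENO2 is the form favoured on glucose. The ENO1 feature stood at 0.41 without rapamycin, 0.59 at 30 min and 1.10 at 120 min. It had the highest score of the group in all 3 columns, at percentiles 89.9, 95.2 and 96.9 of ORF-named features. Its difference for 120 min minus untreated was 0.69. The ENO2 feature stood at -0.31, -0.61 and -0.37, below ENO1 in every column by more than the upper quartile of gaps between 2 features of 1 ORF, which was 0.60, 0.63 and 0.80.

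CDC19 encodes pyruvate kinase, the last enzyme of glycolysis. Its feature stood at -0.61 without rapamycin, 0.22 at 30 min and -0.80 at 120 min. It spanned 1.02, the widest range of the group, low in untreated cells and after 120 min and above the median only at 30 min. The difference was 0.83 for 30 min minus untreated, at percentile 96.9 of ORF-named features, and -1.02 for 120 min minus 30 min, at percentile 3.69. The 2 differences share the 30 min column, and they nearly cancel, with -0.19 left for 120 min minus untreated.

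**Figure D2:**
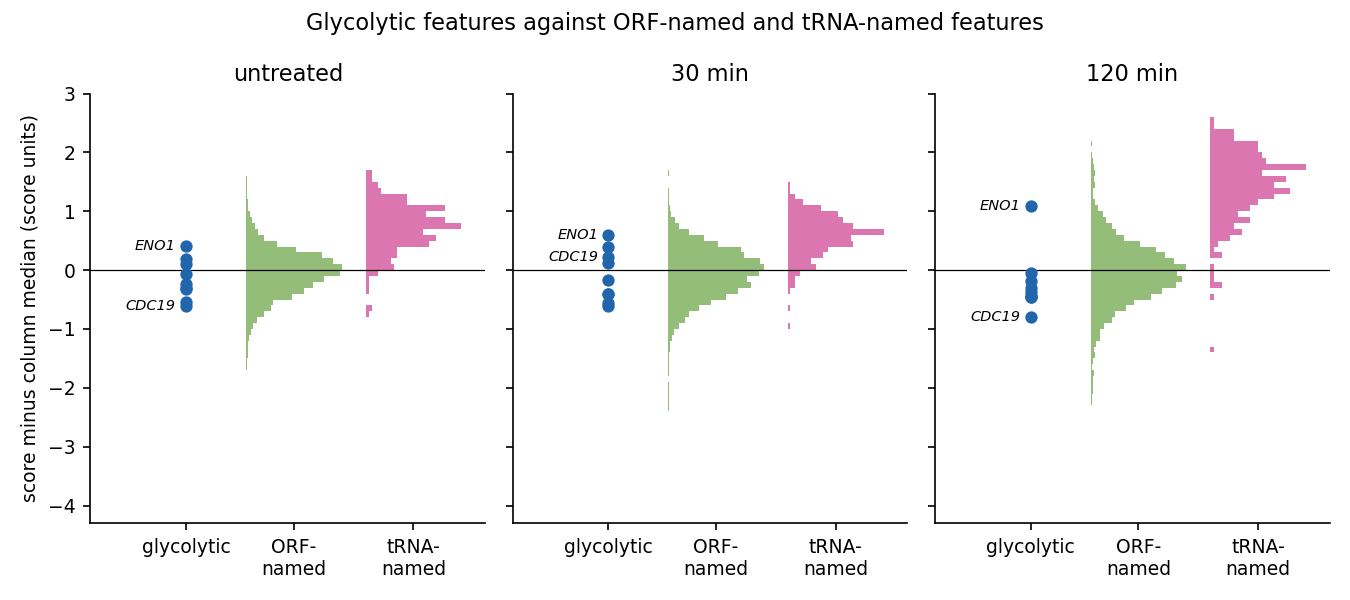
For each condition the points are the 9 glycolytic features, and the histograms, each scaled to its own tallest bin, are all ORF-named and tRNA-named features measured in every column; the vertical axis is the score minus the column median in score units. The points lie among ORF-named features, and after 120 min ENO1 at 1.10 is the one near the tRNA-named features, whose median is 1.46.

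The next comparison was between 30 min of rapamycin and untreated cells. The median difference over the 9 features was 0.07, where ORF-named features had 0.005 and all features -0.004. Of the 9 features 6 were above 0, where 49.5% of all features were, and 3 were below, where 50.5% were. CDC19 and GPM1 were high for this difference, 2 of 9 against a background of 15.9%, and FBA1 was low, 1 of 9 against 18.5%. The other 6 features lay between -0.30 at ENO2 and 0.18 at ENO1. The group had no common direction at 30 min.

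Between 120 min and untreated cells the median difference was -0.15, and 7 of the 9 features were below 0, where 43.9% of all features were. Scaling the columns to equal spread gave a median of -0.037, and quantile normalization gave -0.068. The 2 above 0, where 56.1% of all features were, are ENO1 at 0.69 and the second TDH2 feature at 0.24. Over all features the median for this difference was 0.07, over ORF-named features 0.04 and over tRNA-named features 0.72. ENO1 was high, 1 of 9 against a background of 17%, and FBA1 was low, 1 of 9 against 17.2%. Under the same alternatives the ENO1 difference was 0.42 and 0.29. Most of the negative differences were small: TDH3, the first TDH2 feature, ENO2, CDC19, PGI1 and GPM1 lay between -0.20 and -0.06. Of these, CDC19 and ENO2 changed sign, to 0.003 and 0.03, when the spread of the columns was made equal. All 9 differences were inside the range from the 5th to the 95th percentile of ORF-named features.

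Between 120 and 30 min the median difference was -0.06, with 4 of the 9 features above 0 and 5 below, where 56.9% and 43.1% of all features were. ENO1 was high at 0.50, 1 of 9 against 17.4%, but only by 1.02 robust SDs from the median, and its difference was 0.31 when columns were scaled to equal spread and 0.05 when they were quantile normalized. CDC19 at -1.02 and GPM1 at -0.57 were low, 2 of 9 against 16.8%. For comparison, tRNA-named features differed by a median of 0.87 over the same interval.

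A course with its highest score at 30 min was looked at after the values had been seen. The 30 min score was the highest of the 3 at TDH3, the first TDH2 feature, CDC19 and GPM1, 4 of 9 features, where 27.6% of all features had it. With 9 features this share does not stand apart from that background. At TDH3 and the first TDH2 feature the 30 min score exceeded the untreated one by only 0.02 and 0.07, inside the robust SD of 0.331. The TDH3 excess was 0.003 with columns scaled to equal spread. The 30 min score was the highest at 5 of 16 features of 13 other genes of glycolysis and fermentation (31.2%), a share near the same background. CDC19 and GPM1 were both high for 30 min minus untreated and low for 120 min minus 30 min, 2 of 9, where 6.72% of all features were. Among the 16 features of the other pathway genes 4 met this stricter rule, which was chosen after CDC19 and GPM1 had been seen to meet it. They are PFK1 and PFK2, the subunits of phosphofructokinase, TDH1, the minor glyceraldehyde-3-phosphate dehydrogenase, and PDC1, the main pyruvate decarboxylase. PFK1 stood at -0.47, 0.02 and -0.67 in the untreated, 30 min and 120 min columns. PFK2 stood at -0.20, 0.31 and -0.29, and TDH1 at -0.14, 0.56 and -0.28. Among 12 features of other strongly transcribed Pol II genes 2 met the rule, PDC1 again and the translation elongation factor gene TEF1, and among the 128 features named mostly for ribosomal protein genes 10 did (7.81%). A single raised value in the 30 min column is enough to meet it, and the column is 1 average.

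The 13 other genes of the pathway had differences of both signs. At 30 min minus untreated 5 of their 16 features were high, where 15.9% of all features were, and 2 were low, where 18.5% were. At 120 min minus untreated 4 were high, against 17%, and 1 was low, against 17.2%. The high ones at 120 min were 1 feature of PDC6 at 1.23, ADH1, the main fermentative alcohol dehydrogenase, at 0.67, 1 of 3 features of the hexokinase gene HXK1 at 0.56, and GPM3 at 0.54. The low one was the pyruvate decarboxylase gene PDC5 at -1.12. The low ones at 30 min were 1 feature of HXK1 at -0.78 and GPM2 at -0.72. The median for 120 min minus untreated was 0.12 in this list, against 0.07 over all features, and thus on the other side of 0 from the 9 glycolytic features.

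**Figure D3:**
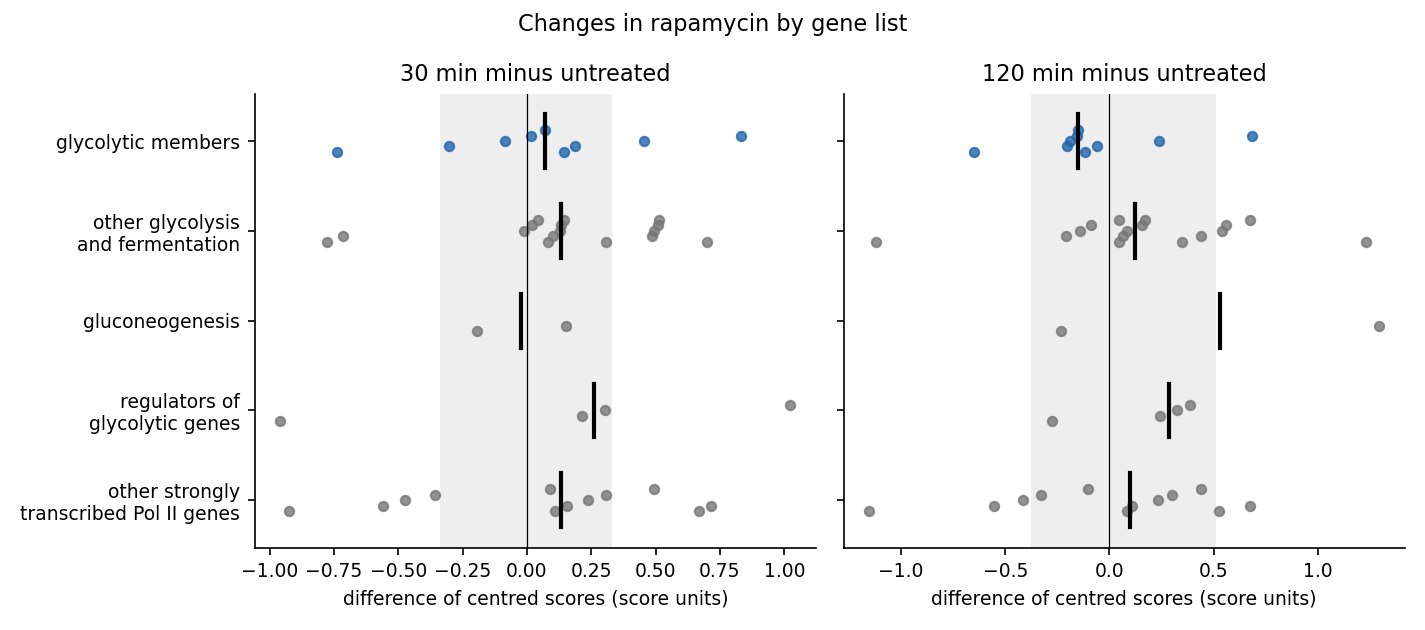
Each point is the difference of scores of 1 feature (horizontal axis, score units), for 30 min minus untreated on the left and 120 min minus untreated on the right, the black bar is the median of the list, and the grey band spans 1 robust SD on each side of the median of all features. The glycolytic members have medians of 0.07 and -0.15, with CDC19 (0.83) and FBA1 (-0.74) at the ends on the left and ENO1 (0.69) and FBA1 (-0.65) at the ends on the right.

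The reverse pathway, gluconeogenesis, which glucose represses, is represented by 2 genes. FBP1, for fructose-1,6-bisphosphatase, stood at 0.64 without rapamycin, 0.79 at 30 min and 1.94 at 120 min, and a tRNA gene is its next gene at higher coordinates. PCK1, for phosphoenolpyruvate carboxykinase, has no Pol III gene beside it and stood at -0.26, -0.45 and -0.49. Of the regulators, GCR1 stood at 0.20, 0.50 and 0.44 and RAP1 at 0.25, 0.46 and 0.58 in the untreated, 30 min and 120 min columns. Neither had a high or low difference between conditions, and GCR2 has no measured feature. The 2 features of the regulator gene TYE7, which has Pol III genes on both sides, stood at 0.81, -0.15 and 0.54 and at 0.20, 1.22 and 0.59 in the order of the conditions. For 30 min minus untreated 1 was low at -0.96 and the other high at 1.02.

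Other strongly transcribed Pol II genes had no raised medians either. Their 12 measured features had medians of -0.16 without rapamycin, -0.06 at 30 min and -0.05 at 120 min. They include PMA1, for the plasma membrane proton pump, which stood at -0.20, -0.76 and -1.36, and ACT1, for actin, which stood at -0.47, -0.32 and 0.05. For 30 min minus untreated 3 of the 12 were high (background 15.9%) and 4 were low (18.5%). For 120 min minus untreated 2 were high (17%), ACT1 at 0.52 and ADH1, and 3 were low (17.2%), PMA1 at -1.15, the chaperone gene HSC82 at -0.55 and the elongation factor gene TEF2 at -0.42. The 128 measured features of genes with symbols in RPL, RPS or RPP and a number, nearly all for ribosomal proteins, had medians of -0.07, -0.03 and -0.14.

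The ENO1 feature was the exception of the group, and its surroundings were examined in gene order. Next to ENO1 at higher coordinates is COQ6, a gene of coenzyme Q synthesis, and the gene after COQ6 is a tRNA gene. The COQ6 feature stood at 0.76 without rapamycin, 0.69 at 30 min and 1.58 at 120 min. On the other side the 2 features of PUP2, which encodes a proteasome subunit, stood at -0.07, 0.02 and -0.25 and at 0.35, 0.41 and 0.83. After 120 min the scores were therefore 0.83 at the second PUP2 feature, 1.10 at ENO1 and 1.58 at COQ6. These were higher at each step towards the tRNA gene if the PUP2 features are numbered from low to high coordinates, which is not known. Farther from the tRNA gene the scores kept no such order. After 120 min GCN5, the next gene at lower coordinates from PUP2, was at -0.25, and NOP19, beyond GCN5, was high at 0.59. GND2, beyond the tRNA gene, stood at 0.37.

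The ENO1 score was set beside those of other features at this distance in genes from a Pol III gene. Across the 182 ORF-named features with exactly 1 gene before the next Pol III gene at higher coordinates, ENO1 included, and at least 3 on the other side, the medians were -0.03, -0.08 and -0.05 in the untreated, 30 min and 120 min columns. ENO1 was above 173 of the other 181 after 120 min. The 5th and 95th percentiles of the class were then -1.47 and 1.03. Features with 3 or more genes between on both sides had -1.02 and 0.71. The distance in bases was not used, because the labels name no genome build for the array, and the part of the tRNA gene in the ENO1 score was not tested. TDH3 has a tRNA gene 1 gene away at lower coordinates, and its feature stayed between -0.06 and 0.12. On the reading of sides given above, that feature lies on the far side of TDH3 from the tRNA gene, unlike the ENO1 feature. The 179 ORF-named features with a Pol III gene in that position had medians of -0.04, 0.01 and -0.03. Whether TDH3 is a like case to set beside ENO1 rests on that reading, and the position of no single feature is known.

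**Figure D4:**
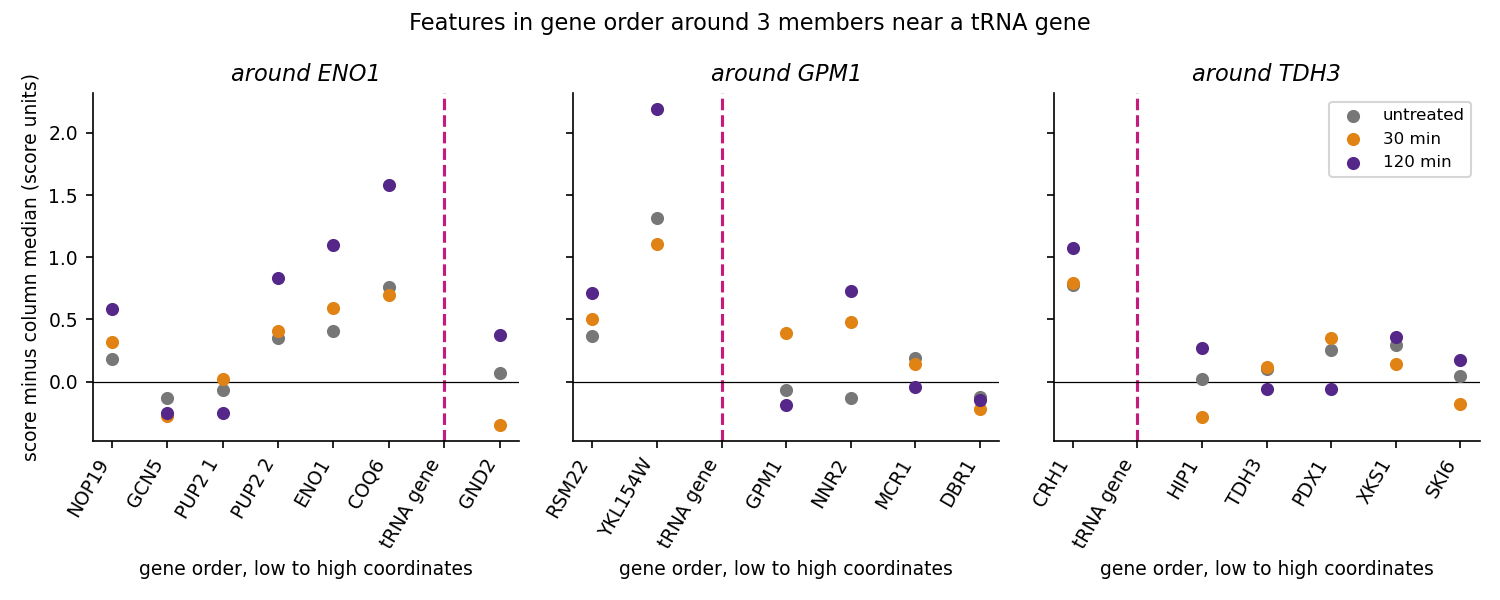
Scores (minus column median, score units) of features in gene order around ENO1, GPM1 and TDH3, from low to high coordinates, with a dashed line where a tRNA gene lies and numbered features of 1 ORF shown in the order of their numbers. COQ6 and ENO1 reach 1.58 and 1.10 after 120 min, on the side of the tRNA gene, and YKL154W reaches 2.19, while the GPM1 and TDH3 features lie at -0.18 and -0.06. NNR2, beside GPM1 at higher coordinates, reaches 0.73, and NOP19, at the low end around ENO1, reaches 0.59. The tRNA genes near GPM1 and TDH3 are at lower coordinates, away from these features on the reading of sides given in the text.

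Both sides of the 10 genes can be set out through the neighbours' features. On the reading of sides given above, 12 features of 9 genes lie upstream and 8 features of 8 genes downstream, with no feature looked up for the downstream side of GPM1 or PGK1. The upstream features had medians of -0.09 without rapamycin, -0.07 at 30 min and -0.28 at 120 min, and 9 of the 12 were below 0 after 120 min. The downstream features had medians of -0.31, -0.45 and -0.10, with 4 of 8 on each side of 0 after 120 min. The highest scores after 120 min were 0.83 upstream, at PUP2 beside ENO1, and 1.10 downstream, at ENO1 itself. Upstream of CDC19 the 2 features of CYC3 stood at -0.38, -0.88 and -1.15 and at 0.42, 0.72 and 0.24, so 1 of them shared the 30 min maximum of CDC19 and the other did not.

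The ORF-named features most like the median course of the group, by Euclidean distance over the 3 scores, were those of MIR1, RIM101, CDC28, HOS3 and CEG1. Their distances ran from 0.045 to 0.078. The median distance of the glycolytic features from their own median course was 0.542, and 1831 of 5688 other ORF-named features (32.2%) were nearer than that. Scores this close to the median course were thus common among ORF-named features. That distance is wider than the differences between the 3 medians of the course, so it shows closeness in level and not a shared direction of change. ENO1 at 1.78 was the member farthest from the median course, ahead of CDC19 at 0.687.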

How the data were processed

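The deposited values were treated as a score, a number with no fixed range; per the labels, they are means of 3 replicates of a 2-colour comparison after normalization by the authors to a gene list. The background correction, spot filters, log base, direction of the ratio and design of the array are not stated in the labels. The number of value columns without a sample was 0. Each column was centred on its median, and changes are differences of centred scores. Features were assigned by the name in their identifier, and symbols and gene order came from a RefSeq table of assembly R64, which held 5525 of the ORF-named features and not 281 others. Its coordinates are not printed. Promoter and protein sequences were not used here.

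The members and lists were chosen with earlier results of these data known. Named genes follow a rule: all members, other glycolysis and fermentation genes high or low for a change, neighbours on which a value turns, and the 5 features nearest to the median course; genes named from the other lists were chosen after their values were seen. The course with its maximum at 30 min and the classes by gene distance were added after seeing the values. Calculations used Python 3.11.15, pandas 2.3.3 and numpy 2.4.6, and were tested on simulated data.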

Additional observations from a re-analysis of the deposited data

How the results depend on the processing

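With 1 averaged column per condition the precision is limited by the number of arrays, and no spread between replicates could be had. No paired analysis was possible because each condition has 1 column. Medians over the 9 glycolytic features were recomputed with no centring, equal spread, quantile normalization, centring by chromosome, centring on ORFs away from Pol III genes, 1 value per ORF, without GPM1 (beside a Pol III gene), with the upstream side for Watson genes and without each gene in turn. A median was taken to move when it shifted by more than the SD over the features divided by the square root of their number. The untreated median of -0.24 moved to -0.12 with centring by chromosome and to -0.089 with the upstream side. The setting with the upstream side takes the 12 upstream features of 9 genes described above. It adds PGK1 through ADP1, so the set of genes differs as well as the side. Without ENO1, TDH3 and GPM1, a choice made after seeing the data, the 30 min median of -0.17 moved to -0.40. Without each gene in turn the medians ranged from -0.28 to -0.067 in untreated cells, from -0.28 to 0.12 after 30 min and from -0.41 to -0.34 after 120 min. The median differences ranged from 0.02 to 0.11 for 30 min minus untreated, from -0.15 to -0.13 for 120 min minus untreated and from -0.12 to 0.01 for 120 min minus 30 min. The 30 min median of 0.12 was without TDH2, as was the untreated one of -0.067. For 120 min minus untreated equal spread gave a median of -0.037 and quantile normalization -0.068. For 120 min minus 30 min they gave -0.0010 and -0.016. Among 270 recomputed values of single features 1 moved by more than 1 robust SD, ENO1 for 120 min minus 30 min, at 0.05 after quantile normalization, and no high or low value changed sign. The cause was not tested.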
